A study of Homo sapiens with 12 samples.

Results

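Antisense RNAs named after the gene on the other strand were followed over time in K-562 cells treated with Si-711. The members were all genes whose symbol ends in -AS and 1 digit and whose value reached 10 normalized counts in at least 3 of the 12 libraries. This rule gave 433 of the 51112 genes in the table, out of 1722 genes with such a symbol, and all 433 were among the 15424 genes tested. The rule used only how high each RNA was measured, and not the direction in which it changed. K-562 is an established human line from chronic myeloid leukemia that makes embryonic and fetal globins, and Si-711 is described as an inhibitor of both SIRT1 and SIRT2, deacetylases that remove acetyl groups from lysines at the expense of NAD. Cells were left untreated or kept with Si-711 at 5 µM for 8, 24 or 48 h, and each of the 4 groups had 3 biological replicates. Polyadenylated RNA was sequenced from strand-specific libraries. Neither vehicle-treated cells nor untreated cells cultured for matching times were used here, so exposure and time in culture cannot be told apart. The 3 untreated libraries served every comparison with untreated cells.

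Antisense RNAs are transcribed from the strand opposite to another gene. Many start close to the promoter of a protein-coding gene and run away from it, since most active human promoters fire in both directions, and others begin inside the gene or beyond its end. Most are spliced, polyadenylated, made in small amounts and turned over quickly, and some are known to tether chromatin regulators or to act on the RNA of the gene opposite. For the large majority no function is established, and the sense gene is often the main thing known about the locus.

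Totals of untreated libraries were 31387546 to 31718907 normalized counts, with 27217438 to 28940867 in the 8 h group, 27070528 to 28256228 in the 24 h group and 34614827 to 37117837 in the 48 h group. All 9 markers of K-562 cells on the list were tested, and GATA1, the master regulator of red cell genes, stood between 5719 and 9722 in all libraries. The remaining markers were lower at 48 h, among them KLF1 at 1080 to 2138 at 48 h and 6742 to 7737 in untreated libraries. HBZ was at 7506 to 8683 at 48 h and 68310 to 163100 in untreated libraries, and HBG2 at 49370 to 53680 and 113100 to 217400. The summed level of all 9 markers was 256400 to 466400 in untreated libraries, 64230 to 83430 in the 8 h group, 70640 to 75950 in the 24 h group and 96670 to 97260 in the 48 h group. Most of the untreated sum was HBG2 and HBZ. The lymphocyte markers summed to 155 to 323 in untreated libraries, 604 to 909 in the 8 h group, 375 to 583 in the 24 h group and 444 to 588 in the 48 h group, most of it CD3D, while CD2, PAX5 and CD4 were never above 12.4. The stromal, endothelial and epithelial markers summed to 2985 to 3300, 2010 to 2727, 2434 to 2928 and 3386 to 4162 in the same 4 groups, nearly all of it EPCAM, while COL3A1 and CDH5 stayed under 3.79. Whether these shifts had a part in the results below was not tested. In bulk RNA, fewer cells of a kind and less RNA per cell cannot be told apart.

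A normalized count is a read count that the authors scaled between libraries. It is not a whole number, since Salmon shares reads among overlapping transcripts by estimation. The sources used here do not say whether the strand was used when reads were assigned, so reads of an antisense RNA and of an overlapping sense exon may not have been kept apart.

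The promoters of 4 antisense RNAs whose start lies close to that of the sense gene are printed because these RNAs mark the contrasting courses described below. SLC25A5-AS1 and SLC25A21-AS1 were at their highest at 8 or 24 h, and FBXL19-AS1 and PAN3-AS1 were nearly lost at 48 h. FBXL19-AS1 and PAN3-AS1 were chosen for printing after their values were seen. Each run covers 250 bases before to 50 bases after the RefSeq start on GRCh38.p14, read 5′ to 3′ along the strand of the antisense RNA, and comes from RefSeq. Capitals mark matches on either strand to the GC box (GGGCGG or CCGCCC), the CCAAT box (CCAAT or ATTGG), the ETS motif (CCGGAAG or CTTCCGG) and the C/EBP-ATF element (by its name alone), of which only the GC box and the ETS motif occurred.
SLC25A5-AS1: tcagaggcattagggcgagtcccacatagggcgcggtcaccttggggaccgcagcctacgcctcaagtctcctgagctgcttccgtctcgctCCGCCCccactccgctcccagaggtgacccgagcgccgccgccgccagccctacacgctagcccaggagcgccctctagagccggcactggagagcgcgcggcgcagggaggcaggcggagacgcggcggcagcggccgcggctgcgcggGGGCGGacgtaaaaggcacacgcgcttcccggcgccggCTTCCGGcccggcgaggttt
SLC25A21-AS1: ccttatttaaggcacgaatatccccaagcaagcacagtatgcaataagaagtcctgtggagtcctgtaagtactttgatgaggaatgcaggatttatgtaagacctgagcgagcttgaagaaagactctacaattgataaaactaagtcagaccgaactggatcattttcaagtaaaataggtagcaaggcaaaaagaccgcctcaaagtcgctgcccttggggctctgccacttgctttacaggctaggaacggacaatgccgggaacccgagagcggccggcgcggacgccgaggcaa
FBXL19-AS1: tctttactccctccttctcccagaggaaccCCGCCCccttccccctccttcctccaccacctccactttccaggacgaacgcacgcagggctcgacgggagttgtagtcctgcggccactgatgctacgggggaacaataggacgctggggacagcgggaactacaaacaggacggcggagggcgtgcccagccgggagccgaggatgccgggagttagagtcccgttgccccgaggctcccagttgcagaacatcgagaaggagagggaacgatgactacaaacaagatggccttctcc
PAN3-AS1: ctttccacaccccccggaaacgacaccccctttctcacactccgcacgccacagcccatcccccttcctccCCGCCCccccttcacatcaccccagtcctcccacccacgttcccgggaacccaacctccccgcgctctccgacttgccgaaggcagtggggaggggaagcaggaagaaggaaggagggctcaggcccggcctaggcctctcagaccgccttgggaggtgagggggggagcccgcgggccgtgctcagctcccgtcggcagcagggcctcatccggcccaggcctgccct

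The window of SLC25A5-AS1 is chrX:119469071-119469370 on the minus strand, with 73.0% G and C, 2 GC boxes and 1 ETS match. That of SLC25A21-AS1 is chr14:37171776-37172075 on the plus strand, with 48.7% G and C and no match to any of these motifs. FBXL19-AS1 lies at chr16:30923220-30923519 on the minus strand with 62.0% G and C and 1 GC box. PAN3-AS1 lies at chr13:28139125-28139424 on the minus strand with 70.0% G and C and 1 GC box. The RefSeq starts of these RNAs lay 676, 580, 418 and 629 bases from those of their sense genes. RefSeq starts and the gene spans given below, which are from GENCODE 29, need not coincide.

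A RefSeq promoter was found for 325 members. Their median content of G and C was 63.7%, against 58.3% over all 27305 promoters of the same length, and the observed to expected ratio of CpG was 0.789, against 0.58. A GC box was found in 60.6% of the member promoters and 44.6% of all promoters, and the ETS motif in 13.5% and 10.7%. The TATA box (TATAAA or TTTATA) was found in 5.54% of the member promoters and 12% of all promoters, the GATA motif (AGATAA or TTATCT) in 7.08% and 10.5%, and the CCAAT box in 34.2% and 35.7%. Promoters of the sense genes had a median of 65.7% G and C, and 64.3% of them held a GC box. By course, the ETS motif was in 19.0% of the 116 promoters of members that fell at 48 h, in 10.5% of the 57 promoters of members that rose and in 10.5% of the 152 others. These shares are descriptions of letters in a window, with no test.

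By annotation, 333 of the 433 genes were of the antisense type, 44 were intergenic noncoding genes, 42 were processed transcripts and 7 were noncoding RNAs of a bidirectional promoter, while 2 were classed as protein coding and the remaining 5 as pseudogenes. They comprised 432 symbols, because DNAJC9-AS1 stands for 2 identifiers. The median member had 4 merged exons and 2362 exon bases. The antisense RNA and the sense gene of the same stem overlapped at their starts in 200 cases, one span lay inside the other in 115, the spans overlapped at their ends in 82, and 26 pairs were divergent with spans apart. A further 2 were convergent and apart, 2 lay on the same strand and 6 had no sense gene of that stem, namely HOXB-AS1, HOXC-AS1, HOXC-AS2, HOXA-AS2, GP6-AS1 and C10orf95-AS1. The starts were within 1000 bases of each other in 147 of 427 pairs. The sense gene was itself tested in 364 pairs with 359 distinct sense genes.

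Most members were scarce. Their mean over 12 libraries ran from 5.64 to 2989 normalized counts, with a median of 35.2 and quartiles of 14.7 and 107, whereas the median of all tested genes was 557. Per kb of exon, the antisense RNA was at a median of 12.5% of its sense gene, and it exceeded the sense gene in 73 of the 364 pairs. A value of 10 was reached in all 12 libraries by 201 members and in all 3 untreated libraries by 289, and 29 reached it in exactly 3 libraries. At the threshold, the third-highest value was 10.04 for DNPEP-AS1, 10.06 for DDN-AS1 and 10.3 for ICAM4-AS1 just inside, and 9.96 for ZNF652-AS1, 9.66 for PITRM1-AS1 and 9.43 for FAM13B-AS1 just outside. Of the 1289 named genes outside, 636 were listed at 0 in every library. A total of 46 members were under 10 in all untreated libraries and so entered through treated libraries alone. Since they passed the level rule only where they were higher than in untreated cells, their rises are no independent evidence, and the values of single genes among them are given as a description. The moderated F-test described below called 31 of these 46.

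Per kb of exon, the most abundant members were MRPL20-AS1 at 635 normalized counts, TMEM132D-AS1 at 634, B3GALT1-AS1 at 586, THAP9-AS1 at 511, PROSER2-AS1 at 403, FGD5-AS1 at 390, BCAN-AS2 at 379 and ARRDC1-AS1 at 369. MRPL20-AS1, opposite the gene of a mitochondrial ribosomal protein, averaged 435 ± 102 normalized counts at 48 h and 1909 ± 108 in untreated cells (SD, n = 3 each), and fell by 2.16 (SE 0.19) on the log2 scale (limma, adjusted p = 3.13e-07). PROSER2-AS1 averaged 174 ± 26.2 at 48 h and 1738 ± 244 in untreated cells (log2 fold change -3.32, SE 0.23, adjusted p = 4.98e-08). FGD5-AS1 averaged 934 ± 232 at 48 h and 2276 ± 148 in untreated cells, while FGD5, the gene of an exchange factor for CDC42, had a mean of 4.79 in untreated cells and means of 9.47, 8.50 and 2.86 after 8, 24 and 48 h. BCAN-AS2 and ARRDC1-AS1 also fell at 48 h, by 2.00 and 1.10. In contrast, TMEM132D-AS1 averaged 2668 ± 284 at 48 h and 991 ± 130 in untreated cells, THAP9-AS1 3198 ± 347 and 1402 ± 29.5, and B3GALT1-AS1 883 ± 169 and 450 ± 18.4. Their log2 fold changes were 1.43, 1.18 and 0.96, with adjusted p-values of 2.93e-07, 3.37e-06 and 0.000128. The most abundant RNA by mean value, OIP5-AS1, singled out after its values were seen, is a long-lived transcript known as cyrano that binds the microRNA miR-7. It held 2680 to 3423 normalized counts in all 12 libraries and passed at no time (adjusted p = 0.329 in the moderated F-test), whereas OIP5, a centromere protein gene, fell by 1.39 at 48 h.

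**Figure D1:**
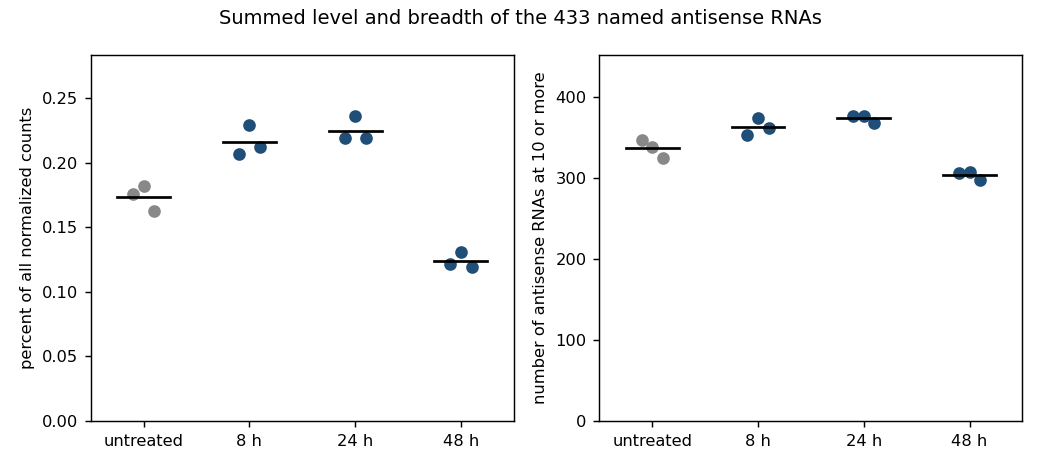
Summed level of the 433 antisense RNAs as a percent of all normalized counts in each library (left) and the number of them at 10 or more (right), in untreated cells and after 8, 24 and 48 h in Si-711. Each point is 1 library and each line a mean of 3. The share lies at 0.163 to 0.183% in untreated libraries, 0.207 to 0.230% in the 8 h group, 0.219 to 0.237% in the 24 h group and 0.119 to 0.131% in the 48 h group.

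Summed over all members, the antisense RNAs stood higher at 8 and 24 h than in untreated cells and lower at 48 h, a description with no test. Their summed level in untreated cells was 51733 to 57274 normalized counts, with 59974 to 62503 in the 8 h group, 61288 to 64063 in the 24 h group and 44313 to 45444 in the 48 h group, and the ranges of the treated groups did not overlap that of untreated cells. The number of members at 10 or more was 325 to 347 in untreated libraries, 353 to 374 in the 8 h group, 368 to 377 in the 24 h group and 297 to 308 in the 48 h group. The moderated F-test over the 3 comparisons called 271 of the 433, where it called 75.3% of all tested genes. The median member had a log2 fold change of 0.27 at 8 h, 0.36 at 24 h and -0.52 at 48 h, while the medians over all tested genes were -0.01, 0.02 and -0.05.

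**Figure D2:**
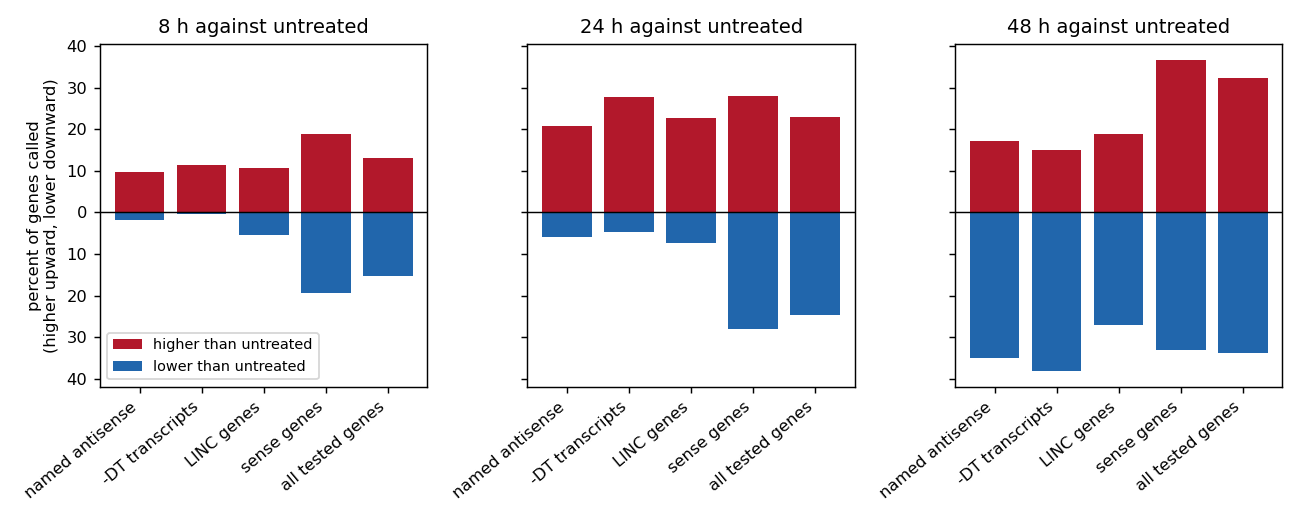
Percent of genes called higher (red, upward) or lower (blue, downward) than untreated cells at 8, 24 and 48 h, for the 433 named antisense RNAs, 212 divergent transcripts, 272 intergenic LINC genes, the 359 sense genes and all 15424 tested genes. At 8 h, 9.7% of the antisense RNAs were higher and 1.85% lower. At 48 h, 17.1% were higher and 35.1% lower.

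After 8 h, 42 members had risen and 8 had fallen, where 13.0% of all tested genes were called higher and 15.2% lower. As shares of the members these counts were 9.7% and 1.85%. Of the 42 rises, 9 were among the 46 members under 10 in all untreated libraries, and among the 289 members at 10 or more in all untreated libraries 29 rose and 7 fell. Among 212 divergent transcripts, noncoding RNAs with the suffix -DT that start beside a gene and run the other way, 24 rose and 1 fell, and among 272 intergenic LINC genes 29 rose and 15 fell. The 359 sense genes divided evenly, with 68 higher and 70 lower. The split of the members depended on scaling: quantile normalization gave 23 higher and 20 lower. Without replicate 2 of the untreated group the count of calls was 31, and without replicate 2 of the 8 h group it was 27.

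Several early rises were from nearly silent loci. MEF2C-AS1 (chr5:88883328-89466398, plus strand) starts opposite MEF2C, a transcription factor of muscle, neurons and blood cells. It held 9.13, 4.80 and 1.5 normalized counts in untreated libraries, 26.1, 19.9 and 22.0 at 8 h, 115, 81.1 and 65.3 at 24 h, and 26.6, 45.5 and 41.3 at 48 h. Every treated library was above every untreated one, and the 24 h libraries were above all others. The log2 fold changes were 2.16 (SE 0.49), 4.02 and 2.84 after 8, 24 and 48 h, given as a description because this RNA was under 10 in all untreated libraries. IGFL2-AS1 lies at chr19:46189166-46203083 on the minus strand, convergent with IGFL2, the gene of a small secreted protein related to insulin-like growth factors. Its 8 h libraries held 57.1, 55.5 and 99.0 and its untreated libraries 4.71, 9.65 and 20.9, with no overlap and a log2 fold change of 2.65 (SE 0.53, adjusted p = 0.00281). IGFL2 rose with it, with means of 67.8 at 8 h and 2.49 in untreated cells.

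EML2-AS1, inside the gene of a microtubule-binding protein on chromosome 19, held 46.7, 28.5 and 46.1 normalized counts at 8 h and 7.0, 10.4 and 10.2 in untreated libraries (log2 fold change 2.00, adjusted p = 0.00243). UBXN10-AS1, whose start is 401 bases from that of a gene for a cilium protein, held 83.4, 172 and 99.4 at 8 h and 23.5, 25.8 and 71.9 in untreated libraries. MATN1-AS1, overlapping the start of the gene of the cartilage protein matrilin 1, held 319, 194 and 177 at 8 h and 138, 58.9 and 58.6 in untreated libraries. In all 3 cases the groups did not overlap, as the rule for naming given below required. Even so, 1 untreated library of UBXN10-AS1 and 1 of MATN1-AS1 stood well above the other 2. A set of 20 members, 4.62% of the 433, was higher at all 3 times, as were 9.13% of all tested genes. Of the 20, 6 were under 10 in all untreated libraries. The 5 RNAs with early rises described above were among the 20, together with HDAC4-AS1, HOXB-AS1, ITGB2-AS1, SOCS2-AS1 and SPRY4-AS1. The last 2, opposite feedback inhibitors of cytokine and growth factor signalling, were picked from the 20 after their values were seen.

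Of the 8 members that fell at 8 h, 6 met the rule for naming. ZNF232-AS1 (chr17:5111468-5115004, plus strand), inside a zinc finger gene, held 224, 143 and 169 normalized counts at 8 h and 464, 490 and 437 in untreated libraries. The groups were far apart, and the fall was 1.40 on the log2 scale (SE 0.21, adjusted p = 0.00044), with falls of 1.34 and 1.32 at 24 and 48 h. PITX1-AS1, beside a homeobox gene, held 29.3, 21.0 and 26.5 at 8 h and 168, 196 and 57.6 in untreated libraries, so the groups did not overlap but 1 untreated library was far below the others. Its log2 fold change was -2.24 (adjusted p = 0.00407) at 8 h and -0.99 at 48 h, where it did not pass (adjusted p = 0.0857). DGUOK-AS1, which overlaps the end of the gene for mitochondrial deoxyguanosine kinase, held 72.2, 79.5 and 108 at 8 h and 197, 188 and 176 in untreated libraries. MAP3K4-AS1, whose start is 615 bases from that of a stress-activated kinase gene, held 169, 108 and 167 at 8 h and 330.0, 271 and 330.0 in untreated libraries. SLC25A25-AS1, opposite a calcium-regulated mitochondrial carrier, held 214, 234 and 213 at 8 h and 335, 398 and 386 in untreated libraries. None of these 3 overlapped between groups, as the rule for naming required, and their adjusted p-values were 0.00551, 0.00438 and 0.00757. These 4, ZNF232-AS1, DGUOK-AS1, MAP3K4-AS1 and SLC25A25-AS1, with GLIPR1-AS1, were the 5 members lower at all 3 times. They made up 1.15% of the members, beside 9.2% of all tested genes with that course.

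GLIPR1-AS1 (chr12:75483454-75489820, minus strand) moved against its sense gene. GLIPR1 encodes a secreted protein of the CAP family that is a p53 target. GLIPR1-AS1 held 146, 155 and 140 normalized counts in untreated libraries, 75.4, 52.6 and 71.9 at 8 h, 13.6, 28.1 and 28.9 at 24 h, and 27.8, 32.3 and 21.5 at 48 h. GLIPR1 held 82.5, 104 and 81.0 in untreated libraries, 290, 336 and 256 at 8 h, 183, 271 and 267 at 24 h, and 281, 255 and 188 at 48 h. Neither gene overlapped between treated and untreated libraries. The ratio of antisense to sense fell by 2.86 (SE 0.23) on the log2 scale at 8 h, by 4.07 at 24 h and by 3.83 at 48 h, with adjusted p-values of 0.00059, 6.72e-06 and 6.45e-07. The fall of GLIPR1-AS1 itself at 8 h, of 1.15 with adjusted p = 0.0218, was no longer called without replicate 1 or 2 of the untreated group or replicate 2 of the 8 h group, with values between -1.15 and -0.99.

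**Figure D3:**
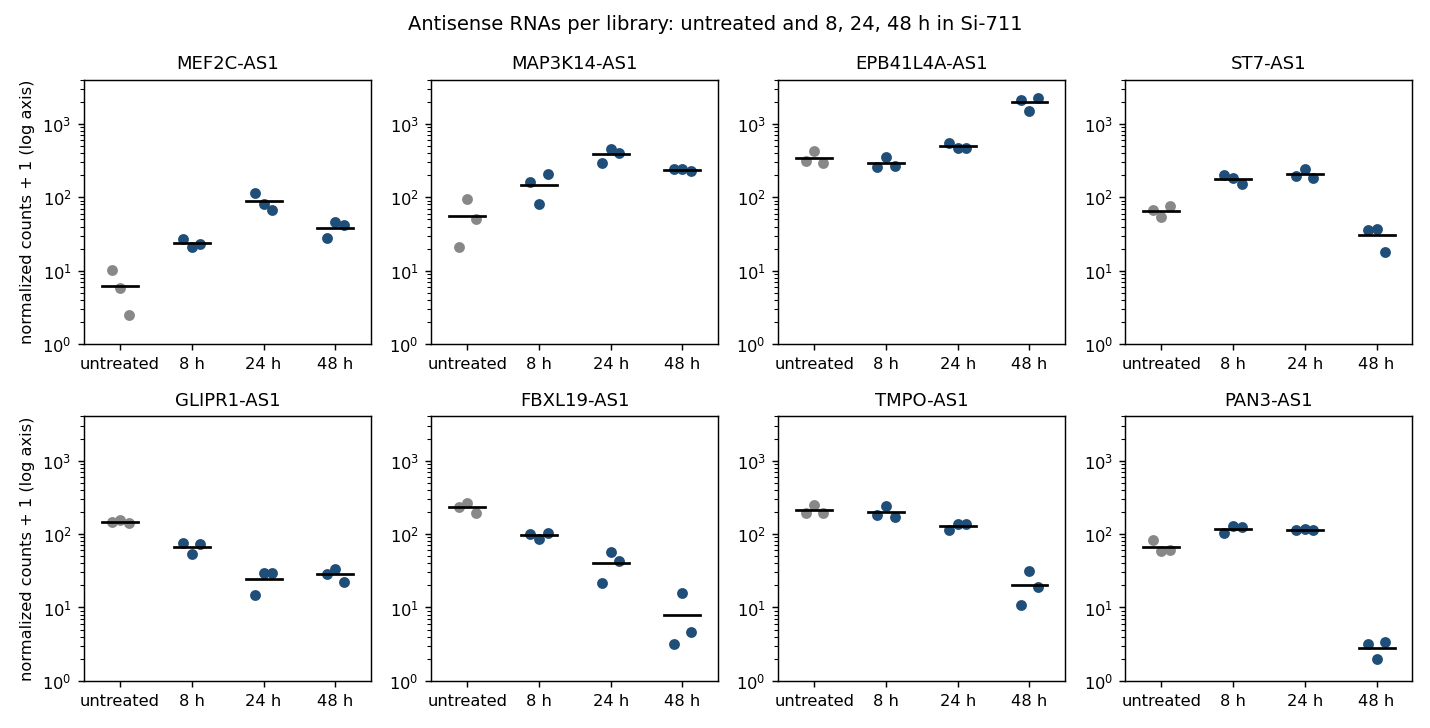
Normalized counts plus 1, on a log axis, of 8 antisense RNAs in each library. Grey points are untreated cells, blue points cells after 8, 24 and 48 h in Si-711, and lines are means of 3 libraries. MEF2C-AS1 and MAP3K14-AS1 are highest at 24 h and EPB41L4A-AS1 at 48 h. ST7-AS1 is higher at 8 and 24 h and lower at 48 h, and PAN3-AS1 is at 0.977 to 2.39 normalized counts in all 48 h libraries.

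After 24 h, 90 members had risen and 26 had fallen, 20.8% and 6.0% of the 433, where 22.9% of all tested genes were called higher and 24.7% lower. Of the 90 rises, 24 were among the 46 members under 10 in all untreated libraries, and among the 289 at 10 or more in all of them 53 rose and 26 fell. The sense genes again divided evenly, with 101 higher and 101 lower. Among divergent transcripts 59 of 212 rose and 10 fell, and among LINC genes 62 of 272 rose and 20 fell. The split of the antisense RNAs was 59 higher and 55 lower with quantile normalization, and 80 higher and 40 lower when each library was centred on its median.

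MAP3K14-AS1 (chr17:45247925-45268630, plus strand) overlaps the end of MAP3K14, which encodes the NF-κB-inducing kinase of the noncanonical pathway. It held 20, 93.5 and 49.3 normalized counts in untreated libraries, 159, 80.5 and 207 at 8 h, 294, 453 and 404 at 24 h, and 241, 246 and 226 at 48 h. The 24 h libraries were above all others, and 1 library at 8 h lay within the untreated range. The log2 fold change was 3.03 (SE 0.46, adjusted p = 0.000129) at 24 h and 2.36 at 48 h. MAP3K14 itself had means of 262 at 24 h and 299 in untreated cells (adjusted p = 0.433), and fell at 48 h to a mean of 143. The ratio of the pair was accordingly higher, by 3.22 at 24 h and 3.41 at 48 h (adjusted p = 0.00109 and 0.000252).

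CCDC18-AS1, which overlaps the end of a coiled-coil protein gene on chromosome 1, held 1000, 753 and 647 normalized counts at 24 h and 208, 231 and 150 in untreated libraries, without overlap (log2 fold change 2.02, adjusted p = 0.000426). BRPF3-AS1 starts 461 bases from BRPF3, a scaffold of histone acetyltransferase complexes. It held 76.0, 49.8 and 52.8 at 24 h and 25.2, 15.4 and 6.13 in untreated libraries (log2 fold change 2.03, adjusted p = 0.00904), and BRPF3 fell by 1.01. SNAI3-AS1 overlaps SNAI3, a repressor of the Snail family, and held 77.5, 72.0 and 117 at 24 h and 26.5, 30.6 and 7.41 in untreated libraries. Its log2 fold change of 2.18 (adjusted p = 0.0144) was not called with quantile normalization, without untreated replicate 3 or without 24 h replicate 3, where it ranged down to 1.58. At the same time SNAI3 fell by 1.25. Among members with a mean of at least 30, EML2-AS1, MATN1-AS1 and SLC25A21-AS1 also had some of the largest rises at 24 h. Their log2 fold changes were 2.30, 2.19 and 2.03.

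Falls at 24 h among members with a mean of at least 30 were led by GLIPR1-AS1 and FBXL19-AS1. FBXL19-AS1 (chr16:30919319-30923269, minus strand) starts close to FBXL19, a protein that binds unmethylated CpG islands. Its 4 groups held 236, 266 and 193 normalized counts in untreated cells, 101, 83.6 and 103 at 8 h, 20.5, 55.9 and 41.8 at 24 h, and 2.15, 14.8 and 3.65 at 48 h. The groups did not overlap, each later one lying below the one before. The log2 fold change was -1.26 at 8 h (adjusted p = 0.0916), -2.62 at 24 h (adjusted p = 0.00109) and -5.23 at 48 h (SE 0.52, adjusted p = 1.22e-06). EFCAB10-AS1, SH3BP5-AS1 and TMEM202-AS1 were lower by 1.46, 1.41 and 1.22 at 24 h, the call of TMEM202-AS1 being lost without untreated replicate 3 or 24 h replicate 1, where its value ranged to -0.996. DGUOK-AS1, SLC25A25-AS1 and ZNF232-AS1 were lower by 1.61, 1.43 and 1.34.

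After 48 h the balance had turned, with 74 members higher and 152 lower, 17.1% and 35.1% of the 433, where 32.3% of all tested genes were called higher and 33.8% lower. Of the 74 rises, 20 were among the 46 members under 10 in all untreated libraries, and among the 289 at 10 or more in all of them 43 rose and 138 fell. Divergent transcripts had the same direction, with 32 higher and 81 lower of 212, and LINC genes had 51 higher and 74 lower of 272. Protein-coding genes were divided evenly, with 4396 higher and 4294 lower of 12619. The sense genes had 132 higher and 119 lower, and a median log2 fold change of 0.04. With equal totals in each library the split of the antisense RNAs was 63 higher and 168 lower. That scaling also moved all 15424 tested genes toward falls, with 4146 higher and 6154 lower, where the main fit called 4989 and 5218. Among the 114 members with a mean of 100 or more, 22 rose and 61 fell, and among the 151 with a mean under 20, 20 rose and 32 fell.

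The deepest falls at 48 h brought RNAs of moderate level close to 0. SDCBP2-AS1 (chr20:1325405-1378734, plus strand), opposite the gene of syntenin 2, held 0, 0.603 and 2.65 normalized counts at 48 h and 61.5, 52.2 and 40.2 in untreated libraries, and its 8 and 24 h libraries stayed between 47.1 and 63.5. The log2 fold change was -4.84 (SE 0.46, adjusted p = 7.41e-07). PAN3-AS1 (chr13:28136843-28138193, minus strand), divergent from the gene of a subunit of the PAN2-PAN3 deadenylase, held 2.13, 0.977 and 2.39 at 48 h and 81.4, 57.0 and 58.9 in untreated libraries (log2 fold change -4.58, SE 0.32, adjusted p = 4.77e-08). MORF4L2-AS1, beside the gene of a histone acetyltransferase complex subunit on chromosome X, held 5.36, 0.980 and 2.41 at 48 h and 61.1, 80.4 and 47.4 in untreated libraries. In all 3 cases the 48 h libraries lay far below every other library.

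NFYC-AS1, 418 bases from the start of the gene for a subunit of the CCAAT-binding factor NF-Y, held 10.7, 16.6 and 2.40 normalized counts at 48 h and 151, 148 and 101 in untreated libraries (log2 fold change -3.89, adjusted p = 9.44e-06). MZF1-AS1, inside the gene of a myeloid zinc finger factor, held 8.32, 2.12 and 1.74 at 48 h and 49.3, 37.5 and 66.2 in untreated libraries. SGMS1-AS1, 212 bases from the start of a sphingomyelin synthase gene, held 9.70, 5.91 and 2.44 at 48 h and 70.8, 90.4 and 59.0 in untreated libraries. TMPO-AS1, 910 bases from the start of the gene for the lamina-associated protein LAP2, held 9.67, 30.5 and 18.2 at 48 h and 193, 248 and 191 in untreated libraries. The log2 fold changes of these last 3 were -3.56, -3.53 and -3.50, with adjusted p-values of 8.88e-05, 9.61e-06 and 8.19e-07. None of the 4 overlapped between 48 h and untreated libraries, as the rule for naming required, and none of them passed at 8 or 24 h.

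Rises at 48 h were fewer and several were large. EPB41L4A-AS1 (chr5:112160526-112164276, plus strand) is a spliced RNA known as the host of a small nucleolar RNA, and lies within the span of EPB41L4A, a gene of the band 4.1 family. It held 312, 429 and 296 normalized counts in untreated libraries, 260, 353 and 266 at 8 h, 547, 476 and 469 at 24 h, and 2146, 1482 and 2246 at 48 h. The 48 h libraries stood far above all others, and the 8 h range overlapped that of untreated cells. Its log2 fold change was 2.49 (SE 0.19, adjusted p = 1.01e-07), while EPB41L4A had means of 372 at 48 h and 399 in untreated cells (adjusted p = 0.902). CCDC18-AS1 held 944, 1398 and 1135 at 48 h, with a log2 fold change of 2.56 against untreated cells.

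ILRUN-AS1, 542 bases from the start of a gene that curbs inflammatory signalling, held 171, 119 and 112 normalized counts at 48 h and 28.6, 14.9 and 13.1 in untreated libraries (log2 fold change 2.82, SE 0.77, adjusted p = 0.00531). Its 24 h libraries were scattered, at 2.41, 60.5 and 16.7, and ILRUN itself stayed at means of 7110 to 7346. IDH1-AS1 lies inside IDH1, the gene of cytosolic isocitrate dehydrogenase, and held 89.4, 99.9 and 86.4 at 48 h and 21.8, 10.2 and 14.1 in untreated libraries (log2 fold change 2.57, adjusted p = 9.44e-05). IDH1 followed another course, with a mean of 1535 in untreated cells and means of 3770, 5174 and 1621 after 8, 24 and 48 h. PRSS23-AS1, within the span of a serine protease gene, held 117, 138 and 110 at 48 h and 33.3, 17.6 and 20.1 in untreated libraries, and PRSS23 rose with it, by 2.33 where the antisense RNA rose by 2.36.

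Between successive times, 19 members rose and 10 fell at 24 h against 8 h, where 8.31% of all tested genes were called higher and 9.83% lower. Quantile normalization gave 19 and 27, centring on the library median gave 16 and 14, and the total of 29 became 11, 17 or 15 without replicate 1, 2 or 3 of the 8 h group and 12 without replicate 1 of the 24 h group. The largest changes in the 2 successive steps are given among called members with a mean of at least 30 and groups that do not overlap. Some scarcer members changed more. At 24 h against 8 h the largest rises on this rule were those of SNAI3-AS1, FOXD3-AS1 and IDH1-AS1, by 2.97, 2.20 and 1.94. FOXD3-AS1 held 50.5, 59.0 and 35.5 normalized counts at 24 h and 6.95, 11.6 and 10.6 at 8 h. The falls of CCDC183-AS1 and NUP153-AS1, by 0.98 and 0.97 with adjusted p-values of 0.0425 and 0.0377, were near the threshold: each call was lost in 7 or more of the fits that left out 1 library, with values between -1.08 and -0.86. Both calls were also lost with no filter on low values, and that of CCDC183-AS1 with a replicate block. From 24 to 48 h, 18 members rose and 170 fell, 4.16% and 39.3% of the 433, where 25.1% of all tested genes were called higher and 27.1% lower, and quantile normalization gave 45 and 112. On the same rule, the largest falls from 24 to 48 h were those of PAN3-AS1, SDCBP2-AS1 and NFYC-AS1, by 5.38, 4.89 and 4.16. The largest rises on it were those of ILRUN-AS1, EPB41L4A-AS1 and NRSN2-AS1, by 3.10, 1.96 and 1.45.

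Taken by course, 163 members were called at no time against untreated cells, 113 fell at 48 h alone, 29 rose at 24 h alone, 28 rose at 48 h alone, 25 rose at 24 and 48 h and 19 fell at 24 and 48 h. As shares of the members these were 37.6, 26.1, 6.7, 6.47, 5.77 and 4.39%, and the shares of all tested genes with the same courses were 23.2, 13.6, 2.55, 11.7, 8.25 and 8.9%. A further 14 members, 3.23%, were higher than untreated cells at 8 or 24 h and lower at 48 h, as were 1.69% of all tested genes, and these are shown as a description, since the direction is what selected them. They were SPEN-AS1, SLC25A5-AS1, ST7-AS1, THAP7-AS1, ASH1L-AS1, ZEB1-AS1, FOXD2-AS1, GATA2-AS1, GABPB1-AS1, CAPN1-AS1, DLGAP1-AS2, GJD3-AS1, C10orf95-AS1 and ARHGEF2-AS2. No member was lower at 8 or 24 h and higher at 48 h. Of all tested genes, 4989 were higher at 48 h. Among them 1809 rose at 48 h alone, 1272 at 24 and 48 h, 1408 at all 3 times and 57 at 8 and 48 h. The remainder of the 4989 had been lower at 8 or 24 h, the course that no member had.

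ST7-AS1 (chr7:116952446-116954334, minus strand), beside the candidate tumour suppressor gene ST7, held 66.6, 52.5 and 75.8 normalized counts in untreated libraries, 199, 182 and 153 at 8 h, 192, 245 and 180 at 24 h, and 35.3, 36.3 and 16.9 at 48 h. The 48 h libraries lay below, and the 8 and 24 h libraries above, all untreated ones. The log2 fold changes were 1.45, 1.65 and -1.17, with adjusted p-values of 0.00373, 0.000616 and 0.00392. SLC25A5-AS1 (chrX:119466034-119469098, minus strand), beside the gene of the ADP/ATP carrier of mitochondria, held 45.0, 46.1 and 39.2 in untreated libraries, 160, 120 and 131 at 8 h, 152, 105 and 107 at 24 h, and 16.7, 18.9 and 40 at 48 h. One 48 h library lay within the untreated range. Its log2 fold changes were 1.63, 1.45 and -0.86, while the abundant SLC25A5 mRNA, at means of 24810 to 35020, rose by 0.25 at 48 h. SLC25A21-AS1 (chr14:37171888-37173811, plus strand), beside the gene of an oxodicarboxylate carrier of mitochondria, had a rise with no later fall below untreated cells. It held 63.8, 42.5 and 25.2 in untreated libraries, 127, 114 and 113 at 8 h, 142, 195 and 178 at 24 h, and 48.2, 51.0 and 27.7 at 48 h, where the ranges overlapped again.

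At 48 h the members were also grouped by their arrangement at the locus, beside 32.3% of all tested genes called higher and 33.8% lower. Where the starts of the antisense RNA and the sense gene lay within 1000 bases, 17 of 147 members rose and 61 fell, with a median log2 fold change of -0.90. Where they were farther apart, 56 of 280 rose and 90 fell, with a median of -0.34. Of the 26 divergent members with spans apart, 1 rose and 10 fell, of the 200 overlapping at the starts 34 rose and 75 fell, of the 82 overlapping at the ends 11 rose and 31 fell, and of the 115 where one span lay inside the other 25 rose and 34 fell. At 8 h the 2 distance classes had medians of 0.28 and 0.25. The difference between the classes was not tested.

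**Figure D4:**
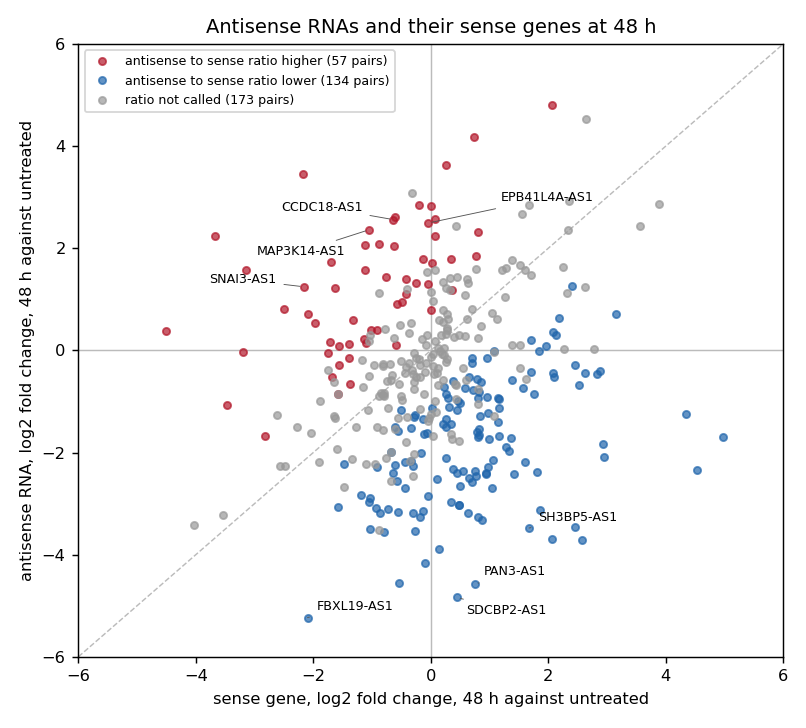
Log2 fold change at 48 h against untreated cells of each antisense RNA (vertical axis) and of its sense gene (horizontal axis) in 364 pairs. Red points are 57 pairs whose antisense to sense ratio was higher at 48 h, blue points 134 pairs whose ratio was lower, and grey points 173 pairs not called. The dashed line marks equal change, and most called pairs lie below it.

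The antisense RNAs were set against their sense genes through the ratio of each pair within a library, fitted over 4736 pairs of tested genes on opposite strands that overlap or lie within 5000 bases or share a stem. At 8 h the ratio was higher in 18 and lower in 15 of the 364 pairs, where 10.7% of all pairs were called higher and 5.15% lower. At 24 h it was higher in 69 and lower in 41, where 25.2% of all pairs were called higher and 13.1% lower. At 48 h it was higher in 57 and lower in 134, where 27.9% of all pairs were called higher and 34.1% lower. The median change of the ratio at 48 h was -0.61 on the log2 scale in the same-stem pairs and -0.11 in the other 4372 pairs. Without replicate 2 of the untreated group or of the 8 h group, the 33 pairs called at 8 h became 20 or 16, and without replicate 1 of the 24 h group the 110 pairs called at 24 h became 71.

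At 48 h both members of the pair were called in 139 pairs, of which 74 changed in the same direction, 50 with both lower and 24 with both higher. In 51 pairs the antisense RNA fell and the sense gene rose, and in 14 the antisense RNA rose and the sense gene fell. Among the other 4372 opposite-strand pairs, both genes were called in 2067, of which 1081 had the same direction. In 559 of the 2067 the noncoding gene, or the scarcer one where both were of a kind, fell and the other rose. In 427 the reverse held. At 8 h, 17 of the 22 pairs with both called had the same direction, beside 264 of 403 other pairs, and at 24 h 35 of 61, beside 626 of 1094.

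Among pairs whose ratio fell, SH3BP5-AS1 and SH3BP5, a Rab11 exchange factor gene, moved apart at every time. SH3BP5-AS1 held 9.38, 16.2 and 9.44 normalized counts at 48 h and 106, 177 and 134 in untreated libraries, while SH3BP5 held 1700, 1965 and 1856 at 48 h and 589, 547 and 591 in untreated libraries. The ratio fell by 1.27 at 8 h, by 2.20 at 24 h and by 5.15 (SE 0.29, adjusted p = 5.31e-07) at 48 h. The ratio of PAN3-AS1 to PAN3 fell by 5.33 at 48 h, PAN3 having means of 2473 at 48 h and 1454 in untreated cells. The ratio of SDCBP2-AS1 to SDCBP2 fell by 5.28, with SDCBP2 means of 58.3 at 48 h and 43.0 in untreated cells (adjusted p = 0.189). ENTPD1-AS1 held 5.24, 3.24 and 32.9 at 48 h and 37.0, 82.0 and 39.0 in untreated libraries, and ENTPD1, the gene of the ectonucleotidase CD39, had means of 110 at 48 h and 29.4 in untreated cells. PROSER2-AS1, MAP3K4-AS1 and DGUOK-AS1 also fell at 48 h while their sense genes rose by 0.87, 0.35 and 0.83.

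The largest ratio changes are given among called pairs with a mean of at least 30 in both genes. At 48 h the rises were led by MAP3K14-AS1, SNAI3-AS1, CCDC18-AS1, MAGEA4-AS1 and UBXN10-AS1, with changes of 3.41, 3.41, 3.20, 3.19 and 2.96. In each of the 5 the sense gene fell, SNAI3 by 2.17, MAP3K14 by 1.05, CCDC18 by 0.64, MAGEA4, a cancer-testis antigen, by 1.11 and UBXN10 by 0.88. MAGEA4-AS1 held 55.3, 61.2 and 46.5 normalized counts at 48 h and 24.7, 8.61 and 8.05 in untreated libraries, without overlap. At 8 h the largest called rises of the ratio were in SLC25A21-AS1, ST7-AS1, KIF9-AS1, SLC25A5-AS1 and ZNF529-AS1, by 2.41, 1.91, 1.87, 1.76 and 1.03. In SLC25A21, ST7, KIF9 and ZNF529 the sense gene had fallen by 0.91, 0.46, 0.83 and 0.86. At 8 h the largest called falls of the ratio were in GLIPR1-AS1, VPS9D1-AS1, FBXL19-AS1, PRSS23-AS1 and MNX1-AS1, by 2.86, 1.68, 1.58, 1.55 and 1.38. The sense genes GLIPR1, VPS9D1, PRSS23 and MNX1, the last a homeobox gene, had risen by 1.71, 1.14, 2.28 and 1.28. Some of these 8 h ratios lost their call when 1 library was left out: KIF9-AS1 lost its call without untreated replicate 3 or 8 h replicate 2 (values between 1.42 and 1.87), VPS9D1-AS1 without untreated replicate 1 or 2 or 8 h replicate 2 (between -1.71 and -1.32), MNX1-AS1 without untreated replicate 1 (between -1.38 and -1.29), ZNF529-AS1 without 8 h replicate 2 (between 0.91 and 1.03) and FBXL19-AS1 without any 1 of 6 libraries (between -1.68 and -1.43). The ratio of SLC25A5-AS1 lost its call without 8 h replicate 2, at 1.77.

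Of 62 well studied antisense RNAs on a list, 57 were in the table and 44 were tested. In that list 5 rose and 1 fell at 8 h, 11 rose and 2 fell at 24 h, and 4 rose and 20 fell at 48 h. Over all tested genes 13.0% were called higher and 15.2% lower at 8 h, 22.9% and 24.7% at 24 h, and 32.3% and 33.8% at 48 h, and the counts of the other lists stand beside the same shares. SBF2-AS1, overlapping the end of the gene for a myotubularin family protein, had a listed value of 0 in every untreated library, all 3 of them, and held 1.80, 1.67 and 6.69 normalized counts at 8 h, 5.31, 7.53 and 0 at 24 h, and 29.8, 17.2 and 37.9 at 48 h, the only group in which it reached 10, so its values are a description. VPS9D1-AS1, described as a MYC-regulated RNA in several tumours, held 353, 173 and 197 at 48 h and 840, 909 and 820 in untreated libraries, and fell by 1.90 (adjusted p = 5.61e-06). MNX1-AS1 held 13.8, 24.3 and 34.2 at 48 h and 64.2, 51.4 and 86.0 in untreated libraries, and fell by 1.5 on the log2 scale.

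Of 12 tested antisense RNAs of blood cell genes, 4 rose at 8 h, 6 at 24 h and 4 at 48 h, and none fell before 48 h, when 3 did. Of all tested genes, 13.0, 22.9 and 32.3% were called higher after 8, 24 and 48 h, and 33.8% lower at 48 h. The rises include ITGB2-AS1 and MEF2C-AS1 at every time and CD81-AS1 at 24 h. These RNAs were under 10 in all untreated libraries, so their rises are no independent evidence. ITGB2-AS1, inside the gene of the β2 integrin of leukocytes, held 0, 0 and 3.02 normalized counts in untreated libraries, 8.28, 10.6 and 9.46 at 8 h, 15.9, 21.7 and 14.6 at 24 h, and 15.0, 34.4 and 41.1 at 48 h, a description, since it reached 10 in treated libraries alone. The sense gene ITGB2 stayed low, with means of 13.5 at 48 h and 7.50 in untreated cells (adjusted p = 0.531). LEF1-AS1, beside the gene of a Wnt-responsive factor of lymphocytes, held 54.8, 76.2 and 28.6 at 24 h and 14.5, 13.3 and 13.8 in untreated libraries (log2 fold change 1.76, adjusted p = 0.0184). ZEB1-AS1, beside the gene of a repressor of epithelial genes, held 372, 609 and 741 at 24 h and 180, 270 and 214 in untreated libraries, and at 48 h 72.4, 148 and 141. Its fall of 0.92 at 48 h lost its call without untreated replicate 2 or 48 h replicate 1, with values between -0.92 and -0.60, and ZEB1 rose by 1.14. The summed lymphocyte markers given above, of which CD3D made up most, stood higher at 8 h than in untreated cells, while CD2, CD4 and PAX5 stayed near 0, and their part in these rises was not tested.

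Of the 4 tested antisense RNAs of HOX clusters, HOXB-AS1 rose at every time. It held 69.0, 97.1 and 111 normalized counts in untreated libraries, 116, 226 and 151 at 8 h, 194, 168 and 156 at 24 h, and 399, 389 and 362 at 48 h, with the 48 h libraries above all others (log2 fold change 2.07, SE 0.25, adjusted p = 7e-06). HOXA-AS2 held 31.3, 18.3 and 5.49 at 24 h and 0, 1.18 and 0.530 in untreated libraries, given as a description because it was under 10 in all untreated libraries. HOXC-AS1 and HOXC-AS2 did not pass at any time, with log2 fold changes of 0.87 and 0.92 at 48 h.

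Of 10 tested antisense RNAs of cell cycle and DNA repair genes, 1 rose and none fell at 8 h, 1 rose and none fell at 24 h, and 1 rose and 5 fell at 48 h, when 33.8% of all tested genes were called lower. MCM3AP-AS1, opposite the gene of an mRNA export factor, held 26.8, 46.1 and 27.3 at 48 h and 108, 103 and 74.0 in untreated libraries. PSMA3-AS1, opposite a proteasome subunit gene, fell by 1.30 at 48 h. DDX11-AS1, which starts 2 bases from a DNA helicase gene, had a log2 fold change of -1.74 at 48 h (adjusted p = 0.0265), a call lost without untreated replicate 1 or 2 or 48 h replicate 2 or 3, with values between -1.74 and -1.19.

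Of 9 antisense RNAs of chromatin genes, 1 rose at 8 h, 4 rose at 24 h, and 1 rose and 6 fell at 48 h, beside 22.9% of all tested genes called higher at 24 h and 33.8% lower at 48 h. HDAC4-AS1, 218 bases from the start of the gene for the class IIa deacetylase HDAC4, was the one that rose at each time. It held 11.5, 6.42 and 9.71 normalized counts in untreated libraries, 29.7, 18.3 and 26.0 at 8 h, 29.9, 33.7 and 43.9 at 24 h, and 42.2, 28.6 and 35.2 at 48 h, with no treated library in the untreated range. HDAC4 rose by 0.61 at 24 h and by 0.78 at 48 h, and the ratio was higher by 1.07 at 48 h (adjusted p = 0.015). ZMIZ1-AS1, divergent from a gene for a regulator of the SUMO pathway, held 8.11, 23.6 and 22.1 at 24 h and 4.06, 0 and 9.86 in untreated libraries, so the ranges overlapped, and it too was under 10 in all untreated libraries. PCGF3-AS1, opposite a Polycomb ring finger gene, had a log2 fold change of -1.68 at 48 h (adjusted p = 0.0199), lost without untreated replicate 2 or 3 or 48 h replicate 2, with values between -1.68 and -0.83. Among 18 antisense RNAs of zinc finger genes, 2 fell and none rose at 8 h, 2 rose and 2 fell at 24 h, and 2 rose and 8 fell at 48 h, when 32.3% of all tested genes were called higher and 33.8% lower.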

How the data were processed

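Polyadenylated RNA of 12 libraries was analysed, 3 for untreated K-562 cells and 3 for each time of 8, 24 and 48 h with Si-711 at 5 µM. The signal values are normalized counts per gene deposited by the authors, who used cutadapt, Salmon and DESeq2 with GRCh38, per the submitters' processing notes. For versions, annotation release and strand setting, nothing is given in the sources used here. The share of low values that came within 0.1 of whole reads was 49.4 to 72.0% per library, too few to recover reads, and no count test was run.

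Symbols came from a gene name table for 50026 identifiers and from GENCODE 29 for 267, while 819 identifiers stayed without a symbol. GENCODE 29 was also the source of GRCh38 coordinates. Genes with a value of 10 in at least 3 libraries were tested, 15424 in all, which is also the level rule for members. Values were compared on the log2 scale after adding 1 with limma 3.58.1 in R 4.3.3, in 1 fit of the 4 groups whose prior variance followed the mean level. Two-sided p-values were corrected by the Benjamini-Hochberg procedure across all genes or all 4736 pairs, and an adjusted p under 0.05 was called. Fold changes are on this log2(value + 1) scale and understate changes of low genes. The difference of the log2 values of antisense RNA and sense gene was tested in the same way.

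The members and lists were chosen with earlier results of these data known. Named were the 8 largest rises and falls against untreated cells and the 3 largest between successive times, among members called with a mean of at least 30 and groups that do not overlap. For genes named this way, lack of overlap in the comparison that named them is no added evidence. Also named were the 5 largest ratio changes each way among called pairs with a mean of at least 30 in both genes. The 8 highest levels per kb of merged exon and up to 4 genes per list were named too. The labels mark the libraries of each group as biological replicates and do not say how the cells were grown. Alternatives were other added values, filters and scalings, a threshold of 0.01, a replicate block, fits of only the compared groups, same-stem pairs alone and leaving out each library. A filter on a mean of at least 10 was added after the data had been seen. The fit was tested on simulated data. Some genes that met the rule for naming are not reported here.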

Additional observations from a re-analysis of the deposited data

Results flagged for a closer look

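The 3 antisense RNAs described here were called higher than untreated cells at 24 h and lower at 48 h, and lower at 48 h against 24 h. Other named members, LEF1-AS1 and KIF9-AS1 among them, also rose at 24 h and fell from 24 to 48 h. Those 2 were not called lower than untreated cells at 48 h. ST7-AS1 had risen by 1.65 on the log2 scale at 24 h against untreated cells, and at 48 h against 24 h its log2 fold change was -2.82 (SE 0.30, limma, adjusted p = 5.96e-06), with all 3 libraries at 48 h below all 3 at 24 h. SLC25A5-AS1 had risen by 1.45 at 24 h, and at 48 h against 24 h its log2 fold change was -2.31 (SE 0.33, adjusted p = 6.48e-05), again with all 3 libraries lower. ZEB1-AS1 had risen by 1.33 at 24 h, and at 48 h against 24 h its log2 fold change was -2.26 (SE 0.30, adjusted p = 3.41e-05), with all 3 libraries lower. The comparison of 48 h with 24 h gives the difference between the effects at these times, since both share the untreated libraries. It is no independent test for these 3 RNAs, because their opposite calls against untreated cells all but fixed a fall in this step. All 14 members listed above as higher at an earlier time and lower at 48 h were called lower at 48 h against 24 h. The values of this step are therefore given as a description.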

How the results depend on the processing

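Of 2383 values of named genes and pairs under the alternatives, 2307 kept direction and side of the threshold, 75 kept direction and were no longer called, 1 became called and 0 reversed. Among members called, the 50 at 8 h became 33 with no filter and 19 at a threshold of 0.01, the 116 at 24 h became 59 with a mean of at least 50 and 69 at 0.01, and the 226 at 48 h became 122 with a mean of at least 50, which leaves fewer members. The 29 at 24 h against 8 h became 16 with no filter, 46 with quantile normalization and 6 at 0.01, and the 188 at 48 h against 24 h became 113 with a mean of at least 50. Of the ratios, the 33 at 8 h became 13 with no filter, 7 at 0.01 and 19 with same-stem pairs alone, the 110 at 24 h became 57 with a mean of at least 50 and 52 at 0.01, and the 191 at 48 h became 95 with a mean of at least 50. Leaving out 1 library gave 27 to 61, 97 to 129 and 198 to 227 members at 8, 24 and 48 h, 11 to 35 and 156 to 189 in the 2 successive steps, and 16 to 38, 71 to 120 and 172 to 194 ratios. Except where the smaller number of members left shows it, the cause was not tested.

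With equal totals the median of all genes was 0.14, 0.20 and -0.24 at 8, 24 and 48 h against untreated cells and -0.43 at 48 h against 24 h. With median centring it was -0.10, -0.12, 0.01 and 0.13. Replicate numbers did not pair the samples: deviations of same-numbered libraries correlated at -0.070 to 0.142, over 0.1 in 2 of 18 cases, and of others at -0.162 to 0.112. A replicate block gave 58, 119, 228, 32 and 190 members and 36, 107 and 194 ratios. Members of low level have few reads behind them, so a change that did not pass may still be present.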
